A study of Mus musculus with 9 samples.

Results

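The solute carrier (SLC) genes of mouse, which code for membrane proteins that move small molecules across membranes, were described across 3 groups of 3 Affymetrix arrays. Members were the genes whose annotated symbol is Slc followed by a digit, leaving out Slc1a3, Slc17a6 and Slc32a1. Each gene was read from 1 probe set with exactly 1 symbol, the one with the highest mean log2 intensity over all 9 arrays. Of 344 such genes, 241 lay above their array's 40th percentile on at least 3 arrays and form the members, out of 13320 genes measured in all, and 103 did not pass and are not described. A member that passed only through the group where it was bright had to differ from the others. All 3 arrays lay below the percentile for 3 members in DKK1-treated cells, for 6 in untreated cells and for 14 in primary cells.

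The DKK1-treated group held progenitors that the labels call retinal (ESC-RPCs), derived from the mouse embryonic stem cell line 46C and given 1 ng/ml recombinant DKK1, a secreted antagonist of Wnt signalling, for 1 day. The untreated group held ESC-RPCs of the same line without DKK1. Both had been made from embryoid bodies formed over 3 days with SB431542, an inhibitor of Nodal signalling, sorted at day 7 for Sox1, a marker of neural precursors (35.8% of cells), and then cultured with 10 µM DAPT, which blocks Notch processing, and 20 ng/ml bFGF. The primary group held retinal progenitor cells (RPCs) from dissociated retina of C57 mice on postnatal day 1, which the labels also call cultured; no cell sort is given for it. The ESC-RPCs come from 1 cell line and the primary cells from C57 mice, so line, strain, stage and culture cannot be told apart in any comparison between them.

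Values are MAS5 intensities in linear units, and each is given for replicates 1, 2 and 3 in that order. Differences are log2 differences ± SE from a limma fit over all 9 arrays, and a gene was called where its p, adjusted over all 13320 genes, lay below 0.05. Outside the sums over marker genes, an intensity was never set against that of another gene, since probe sets differ in brightness. In those sums the brightest probe sets weigh most. Across the 241 members, which are not independent replicates, the log2 profile of a DKK1-treated array correlated with that of an untreated array at 0.967 to 0.986, and that of an untreated array with that of a primary array at 0.782 to 0.835. The spread among arrays was widest in the primary group, with a median SD of a member's log2 intensity of 0.254, against 0.156 in DKK1-treated and 0.123 in untreated cells. Replicate 3 of DKK1-treated cells was the farthest of its group from the median in 115 of 241 members, replicate 3 of untreated cells in 92 and replicate 2 of primary cells in 102.

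Marker genes of other cell types moved with the comparison to primary cells. Intensities summed over 5 photoreceptor markers were 42.9 to 97.9 in DKK1-treated, 47.5 to 106 in untreated and 12856 to 21642 in primary cells, and all 5 lay below the percentile on every ESC-RPC array. For 8 microglia markers the sums were 135 to 237, 152 to 182 and 936 to 1560.4 in these groups. For 7 mesenchyme markers they were 17542 to 21257, 17261 to 21672 and 482 to 715, for 5 astrocyte markers 17671 to 21289, 17682 to 21094 and 604 to 669.5, and for 5 pluripotency markers 18857 to 20165, 16361 to 19816 and 179.9 to 253. The 6 retinal progenitor markers summed to 14526 to 15346, 13682 to 14511 and 34266 to 40094. Most of the ESC-RPC sums came from Sox2, which averaged 10910 in DKK1-treated, 10364 in untreated and 8493 in primary cells. Sox2 was called higher in untreated than in primary cells, and the other 5 of the 6 were called lower. Six6 averaged 63.2, 46.0 and 4386 in these groups, and Rax 12.5, 28.2 and 3939. Rax lay below the percentile on every DKK1-treated array. The ratio of 3-prime to 5-prime signal of Actb, a measure of RNA integrity, was 1.33 to 1.37 in DKK1-treated, 1.32 to 1.37 in untreated and 1.22 to 1.26 in primary cells. The part of these differences in the results on carriers was not tested, and on bulk arrays fewer cells of a type and less RNA per cell cannot be told apart.

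Solute carriers are grouped into numbered families by sequence and serve uptake, export and exchange of nutrients, ions, metals and transmitters. The retina takes up glucose mainly through Slc2a1, passes lactate between cells through Slc16 carriers, and clears transmitters through Slc1 and Slc6 carriers. Cells of other kinds use further members of each family, so the set of carriers a cell transcribes differs with its type, its stage and its nutrient supply.

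In the comparison of ESC-RPCs with primary cells, carriers of different substrates went different ways. DKK1-treated cells differed from primary cells in 126 of 241 members, or 52.3%, where 52.8% of all genes were called; 66 members were higher (all genes 26%) and 60 lower (all genes 26.8%). Untreated cells differed from primary cells in 131 members, or 54.4%, against 53% of all genes; 66 were higher (all genes 26.1%) and 65 lower (all genes 26.9%). The members were thus called about as often as genes in general. Both comparisons use the same 3 primary arrays, so they are not independent of each other, and their values are given side by side.

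By substrate, the classes spread on both sides of zero. Neurotransmitter carriers had the lowest median difference between untreated and primary cells (-0.87 on the log2 scale, 6 of 9 called lower and 1 higher), and carriers of sugars and carboxylates the highest (0.42, 11 of 29 higher and 7 lower). The median over all genes was -0.01. Carriers of amino acids and peptides had 12 of 35 lower and 5 higher, and carriers of metals had 22 of 30 called, 10 higher and 12 lower. In DKK1-treated against primary cells the sugar and carboxylate carriers had 10 of 29 higher and 8 lower (median 0.28), with carriers of vitamins, choline and lipids at a median of 0.29. There the neurotransmitter carriers had 5 of 9 lower and 1 higher (median -0.64), the amino acid and peptide carriers 11 of 35 lower and 5 higher (median -0.09), and the metal carriers 11 of 30 higher and 10 lower (median -0.02).

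**Figure D1:**
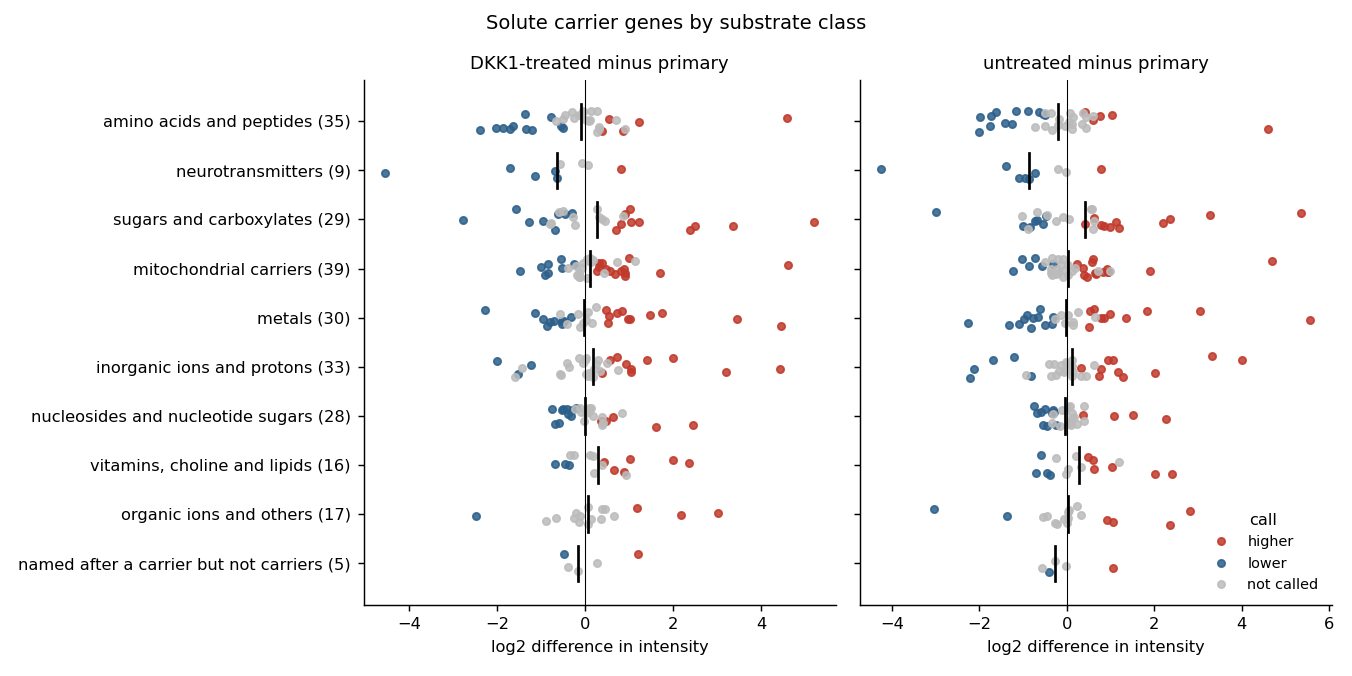
Log2 difference of each member between DKK1-treated and primary cells (left) and between untreated and primary cells (right), by substrate class with the number of members in brackets; red points are called higher, blue called lower, grey not called, and the black bar is the class median, -0.87 for neurotransmitter and 0.42 for sugar and carboxylate carriers in the right panel. Vertical position within a class has no meaning, and both panels use the same primary arrays.

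Several carriers of large neutral and cationic amino acids were lower in ESC-RPCs than in primary cells. Slc3a2, the heavy chain that carries several Slc7 light chains to the cell surface, measured 1923, 1951 and 1886 in DKK1-treated, 2211, 2261 and 2060.4 in untreated and 4909, 4919 and 4818 in primary cells. The 3 primary arrays lay close together and well above all 6 ESC-RPC arrays, with differences of -1.35 ± 0.07 for DKK1-treated and -1.17 ± 0.07 for untreated cells. Slc7a5, a light chain of Slc3a2 that exchanges large neutral amino acids such as leucine, measured 1786, 2035 and 1706 in DKK1-treated, 2169, 2187 and 1669 in untreated and 5223, 4449 and 4611 in primary cells. It again showed no overlap (-1.37 ± 0.12 and -1.25 ± 0.12). Slc7a1, a carrier of arginine and lysine, measured 980.3, 854 and 1115, 1116, 1195 and 1229 and 3399, 5365 and 3487 in these groups, with primary replicate 2 the highest, and differed by -2.03 ± 0.17 and -1.76 ± 0.17; its second probe set moved by -1.73 and -1.56.

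Other amino acid carriers followed in both directions. Slc38a3, which moves glutamine with sodium, measured 157, 153 and 138 in DKK1-treated, 177, 124 and 112 in untreated and 566, 420.4 and 671 in primary cells (-1.86 ± 0.21 and -2.00 ± 0.21). Slc6a17, a vesicular carrier of neutral amino acids in neurons, measured 85.7, 107 and 114, 108, 97.4 and 81.8 and 269.8, 336 and 348 (-1.64 ± 0.19 and -1.73 ± 0.19). For Slc43a2, a facilitated carrier of large neutral amino acids, the values were 215, 228 and 201 in DKK1-treated, 174, 223 and 149 in untreated and 409, 1390.1 and 614 in primary cells, with primary replicate 2 far above the other 2 primary arrays (-1.71 ± 0.36 and -1.97 ± 0.36). In each of these 3 genes every ESC-RPC array was below every primary array.

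Slc38a4, a sodium-coupled amino acid carrier that is imprinted in mouse, ran the other way with a wide gap. It measured 933, 708 and 1162 in DKK1-treated and 849.95, 807 and 1204 in untreated cells, against 22.5, 71 and 35.9 in primary cells, of which 2 arrays lay below the percentile (4.57 ± 0.36 and 4.60 ± 0.36); its second probe set gave 4.89 and 4.94. Slc38a2, a neutral amino acid carrier that cells raise on amino acid shortage, measured 5722, 5918 and 6284, 5981, 5908 and 6357 and 4254, 4861 and 4572, a small rise (0.39 ± 0.07 and 0.42 ± 0.07). Slc6a6, the taurine carrier, measured 1927, 2338 and 2580.2, 1906, 1923 and 2550.2 and 1419, 755 and 1797 (0.86 ± 0.27 and 0.76 ± 0.27). Primary replicate 2 was the lowest for Slc6a6, and without it the difference between untreated and primary cells was 0.40, no longer called. The same difference was 0.83, 0.83 and 0.62 without untreated replicate 1, 2 or 3, and that of DKK1-treated cells was 0.84 and 0.77 without DKK1 replicate 2 or 3, none of them called.

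Among the named amino acid carriers called against primary cells, Slc1a5, Slc7a11 and Slc38a2 had probe sets that disagreed, and so did Slc15a2. Slc1a5, an exchanger of glutamine and other neutral amino acids, measured 40.7, 74.2 and 38.5 in DKK1-treated, 82.6, 106 and 64.5 in untreated and 339, 204 and 235 in primary cells (-2.38 ± 0.31 and -1.62 ± 0.31), but a second, dimmer probe set gave 1.54 and 1.81. Slc7a11, the cystine and glutamate exchanger, measured 183, 215 and 219.9, 185, 165 and 197 and 128, 112 and 48.1 (1.22 ± 0.32 and 1.04 ± 0.32), while its other probe set gave -0.71 and -0.71; without untreated replicate 3 the second difference was 0.98, not called. The Slc38a2 rise was not called on either of its other probe sets. Slc15a2, a carrier of short peptides chosen here after its values were seen, was called lower in untreated than in primary cells on its brightest probe set (-0.64 ± 0.22) and not called in DKK1-treated cells (-0.49 ± 0.22), whereas its other 2 probe sets were far higher in ESC-RPCs (4.10 and 3.96 in DKK1-treated, 3.98 and 3.90 in untreated cells), so its direction is not settled. The alanine and serine exchanger Slc1a4, the sodium-coupled glutamine carrier Slc38a1 and the cationic amino acid carrier Slc7a3 were not called against primary cells. Their differences between untreated and primary cells were 0.45 ± 0.21, 0.12 ± 0.08 and -0.36 ± 0.28. A dimmer probe set of Slc38a1 was called lower (-1.06 in DKK1-treated and -1.01 in untreated cells), so its direction is not settled either.

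Slc3a2, Slc7a5, Slc7a1 and Slc7a11 are known targets of the amino acid response, in which the factor Atf4 raises the transcription of carriers and enzymes. A list of 22 other genes of that response was set beside them. Of the 21 measured, 13 were lower and 2 higher in DKK1-treated than in primary cells (median -0.87), and 14 were lower and 4 higher in untreated than in primary cells (median -0.83). Over all genes, 26.8% were lower and 26% higher in DKK1-treated, and 26.9% and 26.1% in untreated cells, with a median of -0.01 in each. Atf4 itself averaged 4122 in DKK1-treated, 4245 in untreated and 9389.8 in primary cells (-1.19 ± 0.08 and -1.14 ± 0.08). Aldh18a1, an enzyme of proline synthesis, averaged 2190.3, 2316 and 3994 (-0.87 ± 0.07 and -0.79 ± 0.07). Phgdh, the first enzyme of serine synthesis, and Ddit4, a stress-induced brake on mTOR signalling, were the 2 genes called higher in DKK1-treated cells and were singled out after their values were seen (0.68 ± 0.18 and 0.81 ± 0.18 for Phgdh, 1.01 ± 0.12 and 1.10 ± 0.12 for Ddit4).

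**Figure D2:**
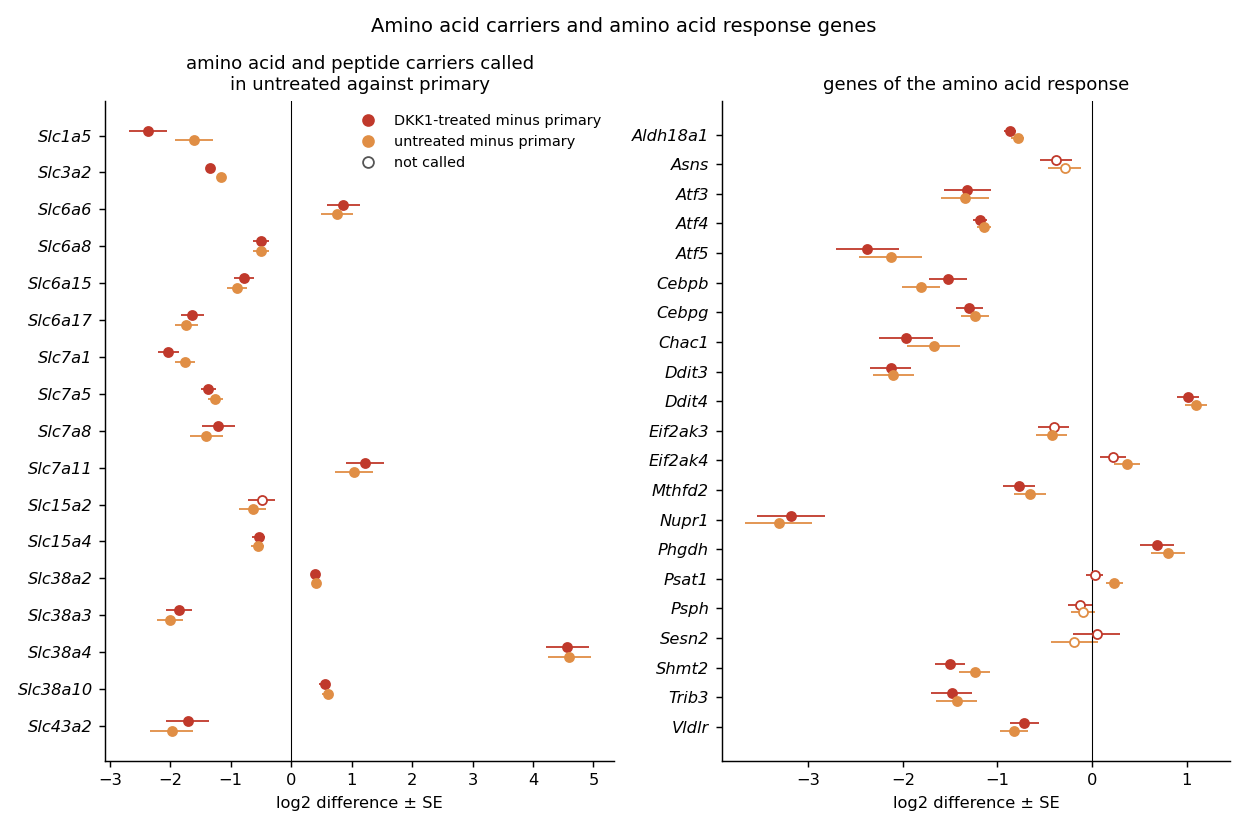
Log2 differences ± SE of the 17 amino acid and peptide carriers called in untreated against primary cells (left) and of the 21 measured amino acid response genes (right), red for DKK1-treated minus primary and orange for untreated minus primary; open points were not called. Slc38a4 lies at the far right of its panel, and 14 of the 21 response genes are called lower in untreated cells, as are 26.9% of all genes.

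The promoters of a lower and of a higher amino acid carrier are shown because the response acts through a short element, whose core TGATGNAA was searched on both strands. The sequences run from 250 bases before to 50 bases after the gene's start, 5′ to 3′ on the gene's strand, from RefSeq on GRCm38.p6, with matches in capitals. The Slc3a2 promoter lies at chr19:8713848-8714147 on the minus strand and holds no match, and that of Slc7a11 lies at chr3:50443564-50443863 on the minus strand and holds 2 matches, beginning 66 and 47 bases before the start. The core was found in the promoters of 4.51% of all 27025 genes in the table, of 2.67% of the measured genes with a promoter there, of 6 of the 186 members with a promoter there, or 3.23%.
Slc3a2: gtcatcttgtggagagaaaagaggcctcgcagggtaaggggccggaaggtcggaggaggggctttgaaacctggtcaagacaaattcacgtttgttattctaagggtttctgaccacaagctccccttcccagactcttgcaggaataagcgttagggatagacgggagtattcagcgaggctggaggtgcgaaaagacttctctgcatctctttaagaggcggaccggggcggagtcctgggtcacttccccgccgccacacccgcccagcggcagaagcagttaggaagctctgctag
Slc7a11: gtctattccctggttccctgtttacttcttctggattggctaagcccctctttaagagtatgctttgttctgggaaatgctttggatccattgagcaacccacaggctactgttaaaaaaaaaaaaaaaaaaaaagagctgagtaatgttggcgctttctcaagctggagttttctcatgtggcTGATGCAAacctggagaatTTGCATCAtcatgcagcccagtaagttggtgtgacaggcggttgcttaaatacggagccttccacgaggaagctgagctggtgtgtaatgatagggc
A match describes the letters of this window and is not evidence of binding, and the absence of one says only that these letters are not in the window.

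Neurotransmitter carriers were mostly lower in ESC-RPCs. The 5 neuron markers went both ways beside them: their sums were 19919 to 25160.2 in DKK1-treated, 20568 to 24001 in untreated and 19898 to 22884 in primary cells, none lay below the percentile, and in untreated against primary cells Tubb3 and Elavl4 were called higher and Snap25 and Syt1 lower. Their part was not tested. Slc1a6, a glutamate carrier best known from Purkinje cells, measured 24.6, 22.5 and 14.8 in DKK1-treated, 64.2, 37.8 and 6.19 in untreated and 496, 381 and 544 in primary cells. All 3 DKK1-treated arrays and 2 of 3 untreated arrays lay below the percentile, so the DKK1-treated cells were at least 9.96-fold lower than primary cells, and untreated cells differed by -4.25 ± 0.69. Slc18a2, which loads monoamines into vesicles, measured 204, 205 and 205, 200.01, 164 and 179 and 259, 382 and 363 (-0.69 ± 0.17 and -0.87 ± 0.17), with every ESC-RPC array below every primary array. Of the carriers of GABA, Slc6a11 measured 226, 331 and 179, 199, 212 and 108 and 377, 285 and 410.1 and was called lower in untreated cells (-1.09 ± 0.29) but not in DKK1-treated cells (-0.57 ± 0.29, overlapping the primary arrays); the difference between the ESC-RPC groups was itself not called.

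Slc6a13, another GABA carrier, measured 51.1, 91.2 and 34 in DKK1-treated, 80.7, 103 and 37.5 in untreated and 147, 304 and 124 in primary cells, with primary replicate 2 the highest (-1.71 ± 0.48 and -1.38 ± 0.48). Without that array the second difference was -0.99, and it was -1.51, -1.50 and -0.95 without primary replicate 1, untreated replicate 1 or untreated replicate 3, none of them called. Slc1a2, the main glutamate carrier of astrocytes, was the 1 member of the class called higher, at 1329.9, 1417 and 948, 1284, 1207 and 1057 and 715, 492 and 922 (0.82 ± 0.22 and 0.78 ± 0.22). A dimmer probe set of Slc1a2 went the other way (-1.89 and -2.31), and the astrocyte markers given above were far higher in ESC-RPCs. The glycine carrier Slc6a9 did not differ beyond its error (0.07 ± 0.12 and -0.01 ± 0.12).

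The glucose carriers of the Slc2 family moved in opposite directions. Slc2a3, a glucose carrier of high affinity found in neurons and early embryos, measured 8785, 7949 and 8321 in DKK1-treated, 8240.3, 8178 and 8213 in untreated and 1139, 1723 and 2079 in primary cells. Every ESC-RPC array was more than 3 times the brightest primary array, and the differences were 2.38 ± 0.17 and 2.36 ± 0.17. Its 3 other probe sets gave 3.82, 2.26 and 2.94 in untreated against primary cells. Slc2a1, the glucose carrier of most growing cells and of the blood-retina barrier, measured 5838, 4805 and 5635, 4729.9, 4425 and 5736 and 8471, 7224 and 9071 in these groups, lower on every ESC-RPC array (-0.60 ± 0.12 and -0.74 ± 0.12). The 7 endothelial markers, genes of a cell type rich in Slc2a1, summed to 532 to 594 in DKK1-treated, 463 to 625 in untreated and 5877 to 7714 in primary cells. Nearly all of the last came from Kdr. The other markers went both ways: Emcn averaged 201, 179 and 48.7 in these groups, and Cldn5 75.2, 81.8 and 269. Of the 5 markers that passed the filter, 1 was called higher and 2 lower in untreated than in primary cells. Tek lay below the percentile on all 9 arrays, and the part of these cells was not tested.

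Slc2a12, a further glucose carrier, measured 333, 259.98 and 337 in DKK1-treated and 313, 243 and 320.1 in untreated cells, and all 3 primary arrays lay below the percentile, at 19.9, 49.6 and 27.6. It was at least 6.5-fold higher in DKK1-treated and at least 6.12-fold higher in untreated than in primary cells. For Slc45a3, a sugar carrier known from prostate and myelin-forming cells, the values were 281, 217 and 293, 298, 239.8 and 352 and 7.5, 19.9 and 2.42, at least 5.52-fold and at least 6.19-fold higher. Of the 3 groups, only the primary arrays lay below the percentile for these genes. Slc45a1, a glucose carrier of brain, measured 157, 153 and 147, 100.1, 119 and 128 and 272, 166 and 140.4; it was called lower in untreated cells (-0.68 ± 0.24) and not in DKK1-treated cells (-0.28 ± 0.24), and the call was lost without primary replicate 1 (-0.41), untreated replicate 1 (-0.58) or untreated replicate 2 (-0.71). Slc2a8, an intracellular hexose carrier, was not called (-0.24 ± 0.15 and 0.05 ± 0.15).

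Among carriers of monocarboxylates, Slc16a6 was lower and Slc16a1 higher. Slc16a6, whose zebrafish counterpart exports ketone bodies from liver, measured 199, 199.6 and 221 in DKK1-treated, 137, 219.6 and 186 in untreated and 1129.8, 1785 and 1401 in primary cells (-2.78 ± 0.20 and -2.99 ± 0.20). All 3 primary arrays exceeded 5 times every ESC-RPC array. Slc16a1, which carries lactate and pyruvate with a proton, measured 2905, 2473 and 2996, 3003, 2526 and 3421 and 1241, 2321 and 1143, with primary replicate 2 close to the lowest ESC-RPC arrays (0.90 ± 0.23 and 0.99 ± 0.23). Slc16a3, the lactate exporter of glycolytic cells, was dim in all groups and not called (0.38 ± 0.37 and 0.56 ± 0.37). Slc13a3, a carrier of succinate and other dicarboxylates, measured 246, 146 and 179, 139, 168 and 145 and 14.7, 26 and 92.7 (2.50 ± 0.54 and 2.20 ± 0.54).

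**Figure D3:**
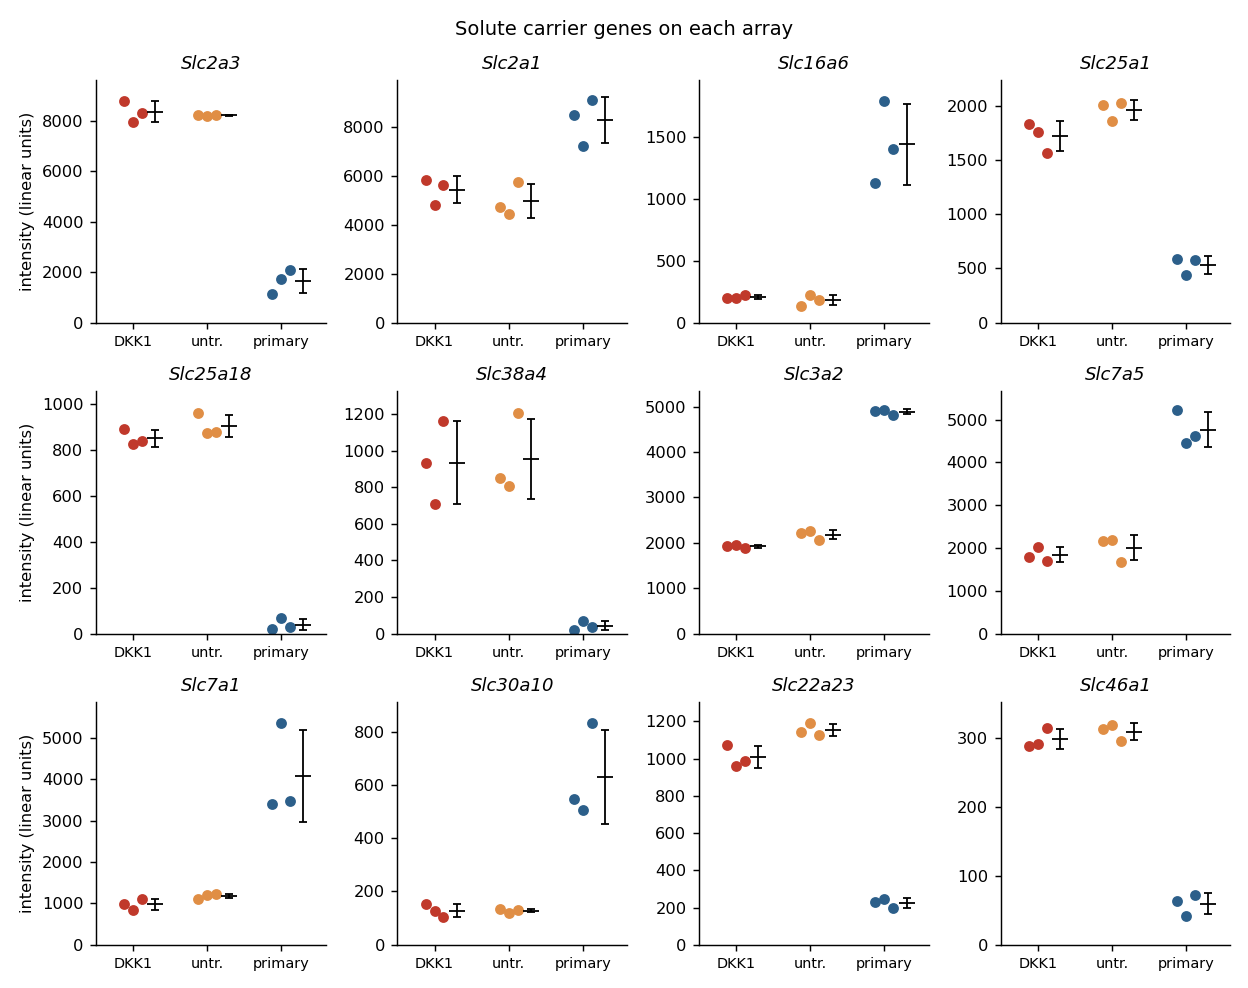
MAS5 intensity (linear units) of 12 members on each array, in DKK1-treated (red), untreated (orange) and primary cells (blue); points are replicates 1 to 3 from left to right, and the black mark beside them is the mean ± SD (n = 3). In each panel the ESC-RPC points lie wholly above or wholly below the primary points, as for Slc2a3 (7949 to 8785 against 1139 to 2079).

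Of 39 mitochondrial carriers, all of the Slc25 family, 14 were higher and 8 lower in DKK1-treated than in primary cells, and 14 were higher and 6 lower in untreated than in primary cells. All genes gave 26% higher and 26.8% lower in DKK1-treated, and 26.1% and 26.9% in untreated cells. The ADP/ATP carriers Slc25a4 and Slc25a5 were both higher. Slc25a4 measured 17363, 17814 and 16835 in DKK1-treated, 16317, 16329.9 and 18038 in untreated and 11629.5, 9733 and 11354 in primary cells (0.67 ± 0.07 and 0.63 ± 0.07). Slc25a5 measured 16253, 16504 and 16305, 16953, 17197 and 16757 and 9997, 8343 and 8138 (0.90 ± 0.07 and 0.95 ± 0.07). Both are bright probe sets with little spread, and no ESC-RPC array overlapped a primary array.

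Slc25a1, which exports citrate for lipid synthesis, measured 1834, 1757 and 1569 in DKK1-treated, 2005, 1859 and 2025 in untreated and 583, 435 and 581 in primary cells (1.70 ± 0.12 and 1.89 ± 0.12). Slc25a18, a glutamate carrier of the inner membrane known from astrocytes, measured 891, 823 and 836, 959, 873 and 877 and 21, 68.2 and 30.1 (4.60 ± 0.33 and 4.69 ± 0.33); 2 of 3 primary arrays lay below the percentile. Its gap moved with the astrocyte markers given above, whose part was not tested. Slc25a34, an orphan carrier, was not called against primary cells (0.42 ± 0.34 and -0.33 ± 0.34).

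The promoters of the citrate carrier and of the lactate carrier, both higher in ESC-RPCs, are shown with the E-box CACGTG in capitals, the element bound by Myc and by the Usf factors. The motif reads the same on both strands. The Slc25a1 promoter lies at chr16:17928170-17928469 on the minus strand with 1 match beginning 239 bases before the start, and the Slc16a1 promoter at chr3:104638414-104638713 on the plus strand with 1 match beginning 200 bases before it. The E-box was found in the promoters of 32 of 186 members, or 17.2%, of 8.09% of all genes in the table and of 11.5% of the measured genes with a promoter there.
Slc25a1: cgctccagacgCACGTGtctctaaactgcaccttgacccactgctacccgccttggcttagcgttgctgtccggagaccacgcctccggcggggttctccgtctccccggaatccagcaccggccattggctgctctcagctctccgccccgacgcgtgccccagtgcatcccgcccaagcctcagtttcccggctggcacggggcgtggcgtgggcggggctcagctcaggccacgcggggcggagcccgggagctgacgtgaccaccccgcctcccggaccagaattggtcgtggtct
Slc16a1: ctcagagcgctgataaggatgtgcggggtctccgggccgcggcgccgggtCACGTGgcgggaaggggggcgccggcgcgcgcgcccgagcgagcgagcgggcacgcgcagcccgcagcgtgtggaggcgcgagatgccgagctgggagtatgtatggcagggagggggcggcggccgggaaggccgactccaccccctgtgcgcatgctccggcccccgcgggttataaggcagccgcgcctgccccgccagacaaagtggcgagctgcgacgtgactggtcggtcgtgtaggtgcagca
Of the 6 mitochondrial carriers with the motif, 3 were called higher and 1 lower in untreated against primary cells, and of 4 amino acid and peptide carriers with it none was called. Of 5 metal carriers with it, 2 were higher and 2 lower. The 4 sugar and carboxylate carriers with it, Slc16a1 among them, had 3 higher and 0 lower. For the 6 carriers of inorganic ions and protons with it, the counts were 1 and 0. Each other class held 1 to 3 such members or none. Of all genes, 26.1% were higher and 26.9% lower.

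Metals showed a split between families. Slc30 carriers move zinc out of the cytosol, and Slc39 carriers move it in. Of 9 Slc30 members, 5 were lower and 2 higher in DKK1-treated than in primary cells, and 5 lower and 1 higher in untreated than in primary cells (medians -0.32 and -0.32). Of 12 Slc39 members, 7 were higher and 1 lower in DKK1-treated, and 7 higher and 2 lower in untreated than in primary cells (medians 0.51 and 0.51). The shares over all genes were 26% higher and 26.8% lower in DKK1-treated, and 26.1% and 26.9% in untreated cells.

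Slc30a10, which exports manganese as well as zinc, measured 152, 127 and 106 in DKK1-treated, 133, 120.1 and 132 in untreated and 547, 507 and 831 in primary cells (-2.27 ± 0.21 and -2.26 ± 0.21). Slc30a1, the zinc exporter of the plasma membrane, measured 927, 992 and 1033, 880.2, 1028 and 794 and 1298, 3022 and 1756, with primary replicate 2 the highest (-0.95 ± 0.24 and -1.09 ± 0.24). Every ESC-RPC array lay below every primary array for both exporters. Slc39a4, the zinc importer of gut, measured 101, 123 and 128, 112, 66 and 91.2 and 10.0, 11 and 11, and was at least 2.47-fold higher in DKK1-treated and at least 1.85-fold higher in untreated cells. Slc39a12, a brain importer, was dim throughout at 9.34, 49.3 and 44.4, 59.3, 48.3 and 73.3 and 1.36, 1.46 and 1; it was at least 1.26-fold higher in untreated cells, and 2 of 3 DKK1-treated arrays lay below the percentile. Slc39a10 was not called (0.07 ± 0.10 and 0.14 ± 0.10).

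**Figure D4:**
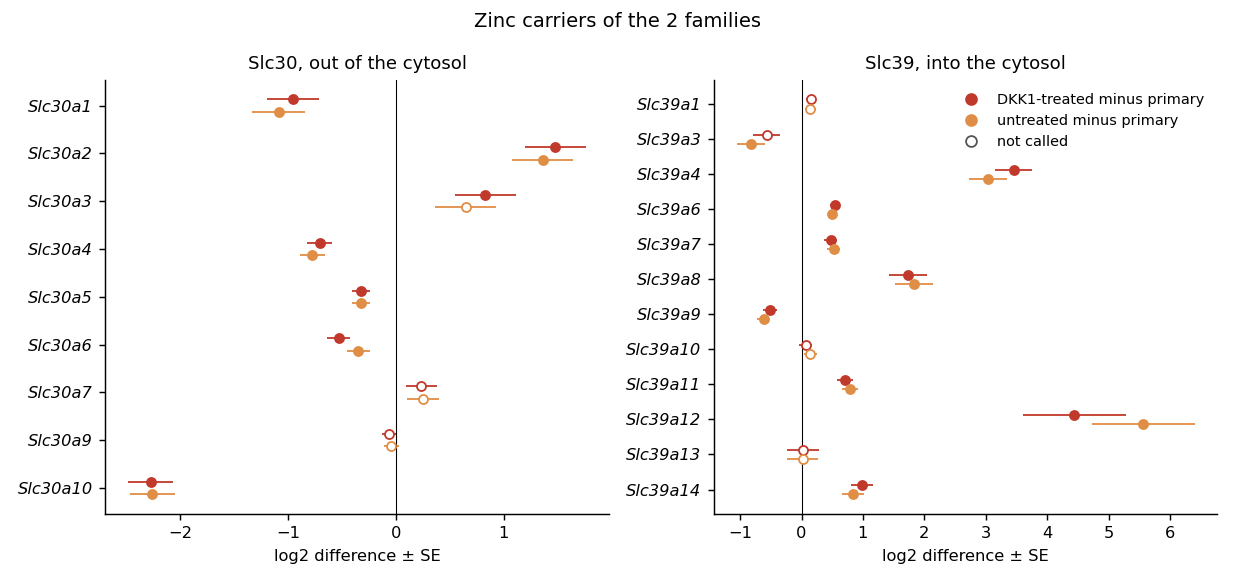
Log2 differences ± SE of all 9 measured Slc30 members (left) and all 12 measured Slc39 members (right), red for DKK1-treated minus primary and orange for untreated minus primary; open points were not called. Slc30a10 lies lowest, and the fitted differences of Slc39a4 and Slc39a12 rest on primary arrays below the percentile, for which the text gives lower bounds.

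The promoters of the exporters Slc30a1 and Slc30a10 are shown because Slc30a1 is a known target of the zinc-sensing factor Mtf1, which binds metal response elements. The cores TGCACNC and TGCGCNC were searched on both strands, and matches are in capitals. The Slc30a1 promoter lies at chr1:191906531-191906830 on the plus strand, with 1 match beginning 43 bases before the start and 1 beginning 31 bases after it. The Slc30a10 promoter lies at chr1:185454598-185454897 on the plus strand, with 2 overlapping matches beginning 233 and 232 bases before the start and 1 beginning 73 bases before it. These short cores are common: they were found in the promoters of 28.2% of all genes in the table, of 41.3% of the measured genes and of 82 of 186 members, or 44.1%.
Slc30a1: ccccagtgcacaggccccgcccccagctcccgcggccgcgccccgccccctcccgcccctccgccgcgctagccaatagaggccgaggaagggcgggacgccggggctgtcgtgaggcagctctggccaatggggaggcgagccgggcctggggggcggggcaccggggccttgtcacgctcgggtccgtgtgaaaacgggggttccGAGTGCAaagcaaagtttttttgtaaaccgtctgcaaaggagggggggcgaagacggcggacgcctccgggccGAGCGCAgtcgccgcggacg
Slc30a10: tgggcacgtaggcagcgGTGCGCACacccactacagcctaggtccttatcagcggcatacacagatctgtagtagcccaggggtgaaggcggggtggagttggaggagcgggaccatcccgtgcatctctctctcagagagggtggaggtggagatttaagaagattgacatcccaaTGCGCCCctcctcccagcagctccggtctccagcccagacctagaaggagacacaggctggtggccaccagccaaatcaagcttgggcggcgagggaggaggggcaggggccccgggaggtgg
Of the 14 metal carriers with such a match, 8 were lower and 3 higher in untreated than in primary cells, and 6 lower and 4 higher in DKK1-treated than in primary cells. Of all genes, 26.9% were lower and 26.1% higher in untreated cells, and 26.8% and 26% in DKK1-treated cells. Other classes with the core went either way. Of 10 mitochondrial carriers 6 were higher and 0 lower in each comparison, and of 12 nucleoside and nucleotide sugar carriers 1 was higher and 4 lower.

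Iron and copper carriers were fewer. Slc40a1, the iron exporter ferroportin, measured 278, 348 and 287 in DKK1-treated, 274, 298 and 309 in untreated and 117, 165 and 171 in primary cells (1.02 ± 0.17 and 0.98 ± 0.17), with no overlap. Slc11a2, the iron importer, was not called (-0.15 ± 0.17 and -0.13 ± 0.17), and 1 of its other probe sets was called higher (0.99 and 1.43). Slc31a2, a copper carrier of endosomes, measured 186, 182 and 208, 167, 129 and 108 and 250.3, 180.5 and 202 and was called lower in untreated cells (-0.66 ± 0.20), a call lost without untreated replicate 3 (-0.51) or primary replicate 1 (-0.53).

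Among carriers of inorganic ions and protons, 10 of 33 were higher and 3 lower in DKK1-treated than in primary cells, and 10 higher and 5 lower in untreated than in primary cells. For all genes the shares were 26% higher and 26.8% lower in DKK1-treated, and 26.1% and 26.9% in untreated cells. Slc8a3, a sodium and calcium exchanger of neurons and muscle, measured 295, 319.5 and 250.2 in DKK1-treated, 296, 288 and 194 in untreated and 723, 739 and 1033 in primary cells (-1.52 ± 0.20 and -1.69 ± 0.20). Slc4a10, a bicarbonate carrier of neurons, measured 127, 99.5 and 64, 129, 106 and 37.8 and 407, 334 and 381 (-2.00 ± 0.41 and -2.22 ± 0.41). Both were lower on all ESC-RPC arrays. Slc4a4, the electrogenic bicarbonate carrier of glia and kidney, measured 513, 474 and 407, 454, 401 and 415 and 207, 184 and 139 (1.41 ± 0.16 and 1.28 ± 0.16).

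Slc9b1, a sodium and proton exchanger known from testis, measured 144, 151 and 206 in DKK1-treated and 122, 107 and 142 in untreated cells, and all primary arrays were below the percentile, at 21.7, 2.15 and 9.89; it was at least 3.48-fold and at least 2.6-fold higher. Slc4a1, the anion exchanger of red blood cells, was dim in every group (52.7, 33.4 and 66.8, 37.5, 63 and 64.9 and 1.52, 5.23 and 19.1), and its bounds were only 1.03-fold and 1.13-fold. Among the 4 red blood cell markers read, Alas2, Hba-a1 and Rhag lay below the percentile on all 9 arrays. Epor, the remaining marker, averaged 105 in DKK1-treated, 89.8 in untreated and 55.0 in primary cells. It was not called in untreated against primary cells, and the part of these cells was not tested. Slc24a2, the potassium-dependent sodium and calcium exchanger of cones, measured 30.2, 29.3 and 30.8, 4.51, 43.6 and 32.8 and 82.9, 94.9 and 68.3, at least 1.74-fold lower in untreated than in primary cells; leaving out primary replicate 1 or 2 gave -2.11 and -2.02, not called. The photoreceptor markers, higher in primary cells, moved with it, and their part was not tested.

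Slc12a2, which carries chloride into cells, measured 2478, 2212 and 2795 in DKK1-treated, 2353, 2362 and 2475 in untreated and 1982, 2111 and 1656 in primary cells (0.38 ± 0.11 and 0.33 ± 0.11). Without primary replicate 3 the second difference was 0.23, and without untreated replicate 1, 2 or 3 it was 0.34, 0.34 and 0.31, none of them called; the first was 0.30 without DKK1 replicate 3, also not called. Its counterpart Slc12a5, which exports chloride from mature neurons, was not called (0.01 ± 0.34 and -0.36 ± 0.34). Nor were the sodium and calcium exchangers Slc8a1 (0.34 ± 0.22 and 0.15 ± 0.22) and Slc24a4 (-1.58 ± 0.66 and -0.29 ± 0.66) or the phosphate carrier Slc20a1 (-0.36 ± 0.18 and -0.41 ± 0.18). Slc24a4 was dim, with all 3 DKK1-treated arrays below the percentile.

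Of 28 carriers of nucleosides and nucleotide sugars, 5 were higher and 10 lower in DKK1-treated and 4 higher and 10 lower in untreated cells than in primary cells, and none of the lower ones differed by 2-fold. Genes in general were higher in 26% and lower in 26.8% in DKK1-treated, and in 26.1% and 26.9% in untreated cells. The 24 Slc35 members, which bring nucleotide sugars into the Golgi and endoplasmic reticulum, held all 10 of the lower calls in each comparison. Slc35b2, the carrier of the sulphate donor PAPS, measured 559, 592 and 541 in DKK1-treated, 583, 605 and 614 in untreated and 911, 791 and 1025 in primary cells (-0.68 ± 0.11 and -0.59 ± 0.11), but a dimmer probe set went up (0.93 and 0.72). Slc35a1, the carrier of CMP-sialic acid, measured 1269.9, 1144 and 1155, 1338, 1150.1 and 1236 and 1789.5, 1464 and 1439 (-0.39 ± 0.11 and -0.33 ± 0.11). The second difference was not called without primary replicate 1 (-0.23), untreated replicate 2 (-0.28) or untreated replicate 3 (-0.33). With arrays centred on one median neither difference was called (-0.34 and -0.26). Slc35f2, an orphan of the family, rose, at 160.1, 150.3 and 124, 140.3, 129.8 and 136 and 36.5, 72.7 and 40.4 (1.60 ± 0.27 and 1.51 ± 0.27), and the nucleoside carrier Slc29a1 was not called (0.39 ± 0.32 and 0.22 ± 0.32).

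Carriers of vitamins, choline and lipids had 6 of 16 higher and 3 lower in DKK1-treated, and 6 higher and 4 lower in untreated than in primary cells. The whole set of genes had 26% higher and 26.8% lower in DKK1-treated, and 26.1% and 26.9% in untreated cells. The folate carriers went opposite ways. Slc46a1, which carries folate with protons, measured 288, 291 and 314 in DKK1-treated, 313, 319 and 295 in untreated and 64.1, 42.4 and 72.8 in primary cells (2.35 ± 0.20 and 2.41 ± 0.20). Slc19a1, the reduced folate carrier, measured 686, 652 and 666, 691, 656 and 623 and 871, 774 and 955 (-0.37 ± 0.11 and -0.40 ± 0.11). Every ESC-RPC array was above every primary array for Slc46a1 and below for Slc19a1. With arrays centred on one median the Slc19a1 differences were -0.32 and -0.33, neither of them called.

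Both choline carriers named here rose. Slc44a2 measured 1605, 1629 and 1818 in DKK1-treated, 1738, 1699.6 and 1692 in untreated and 764, 881 and 851 in primary cells (1.02 ± 0.09 and 1.04 ± 0.09), and Slc44a1 differed by 0.42 ± 0.10 and 0.48 ± 0.10. Slc27a1, which takes up fatty acids, measured 463, 433 and 335, 468, 387 and 327 and 243, 255 and 275 (0.66 ± 0.17 and 0.60 ± 0.17), and without untreated replicate 1 its second difference was 0.47, not called.

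The organic ion class held the member with the smallest adjusted p of all. Slc22a23, an orphan carrier of the organic ion family, measured 1073, 963 and 989 in DKK1-treated, 1144, 1192 and 1128 in untreated and 231, 245 and 198 in primary cells, with every ESC-RPC array far above the primary arrays (2.17 ± 0.11 and 2.37 ± 0.11, limma adjusted p = 1.26e-07 and 7.09e-08). Its relative Slc22a17, a receptor for lipocalin, measured 1577, 1771 and 1198, 1443, 1459 and 1262 and 585, 746 and 672 (1.17 ± 0.15 and 1.06 ± 0.15). The urea carriers moved in opposite directions. Slc14a1 measured 54, 40.9 and 25.2, 36.3, 31.2 and 15.2 and 323, 169 and 174, at least 4.54-fold lower in untreated than in primary cells, and Slc14a2 measured 161, 202 and 139, 148, 181 and 112 and 49.5, 27.8 and 6.33 (3.01 ± 0.60 and 2.81 ± 0.60). Slc22a15, another orphan, was not called (-0.24 ± 0.15 and 0.06 ± 0.15), but a dimmer probe set of it was called lower (-1.63 and -1.20). In the same comparisons, of the 5 genes that carry an Slc name without being carriers, the scaffold Slc9a3r1 was higher (1.19 ± 0.14 and 1.05 ± 0.14) and the kanadaptin gene Slc4a1ap lower (-0.48 ± 0.10 and -0.41 ± 0.10).

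Treatment with DKK1 changed no member at the threshold. In the fit of 9 arrays 0 of 241 members were called against untreated cells, where 0% of all genes were called, and before adjustment 5 members had a p under 0.05. In 24 members, or 9.96%, the DKK1-treated and untreated arrays did not overlap, against 12% of all genes. Slc3a2 measured 1923, 1951 and 1886 in DKK1-treated and 2211, 2261 and 2060.4 in untreated cells (log2 difference -0.18 ± 0.07, adjusted p = 1), and its 3 DKK1-treated arrays lay below the 3 untreated ones. Slc1a5 measured 40.7, 74.2 and 38.5 and 82.6, 106 and 64.5 (-0.76 ± 0.31), with overlap between the groups but lower in each of the 3 same-numbered pairs. On the other side, Slc31a2 measured 186, 182 and 208 and 167, 129 and 108 (0.54 ± 0.20), Slc35a2, the carrier of UDP-galactose, 462, 463 and 612 and 332, 419.6 and 397 (0.41 ± 0.15), and Slc25a34 111, 74.8 and 69.6 and 49.2, 54 and 45.7 (0.75 ± 0.34); none of these 3 overlapped. Slc35a2 was called lower in untreated than in primary cells (-0.44 ± 0.15) and not in DKK1-treated cells (-0.03 ± 0.15), and some of its other probe sets went the other way. That call was lost without untreated replicate 1 (-0.34), untreated replicate 3 (-0.47) or primary replicate 3 (-0.36).

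The remaining members named for a small unadjusted p were Slc6a11 (0.52 ± 0.29) and Slc45a1 (0.40 ± 0.24) on the higher side and Slc22a15 (-0.30 ± 0.15), Slc2a8 (-0.29 ± 0.15) and Slc24a4 (-1.29 ± 0.66) on the lower side, none with an unadjusted p under 0.05. With the replicate block, that is, comparing arrays of the same number among the 6 of ESC-RPCs, 0 of 241 members were called, where 0.488% of all genes were, and 31 members had an unadjusted p under 0.05. The smallest adjusted p in this blocked limma fit was that of Slc5a3, the inositol carrier, singled out after its value was seen (0.21 ± 0.05, adjusted p = 0.0846), followed by Slc3a2 (-0.18 ± 0.04, adjusted p = 0.107). Leaving out the pair numbered 3, an alternative added once the data had been seen, gave 1 call of 241, where 1.6% of all genes were called: Slc12a5 (0.45 ± 0.11, adjusted p = 0.0482), and leaving out pair 1 or 2 gave 0. A p that misses the threshold does not show that the groups were alike: the median SE of a log2 difference in the fit of 9 arrays was 0.15.

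**Figure D5:**
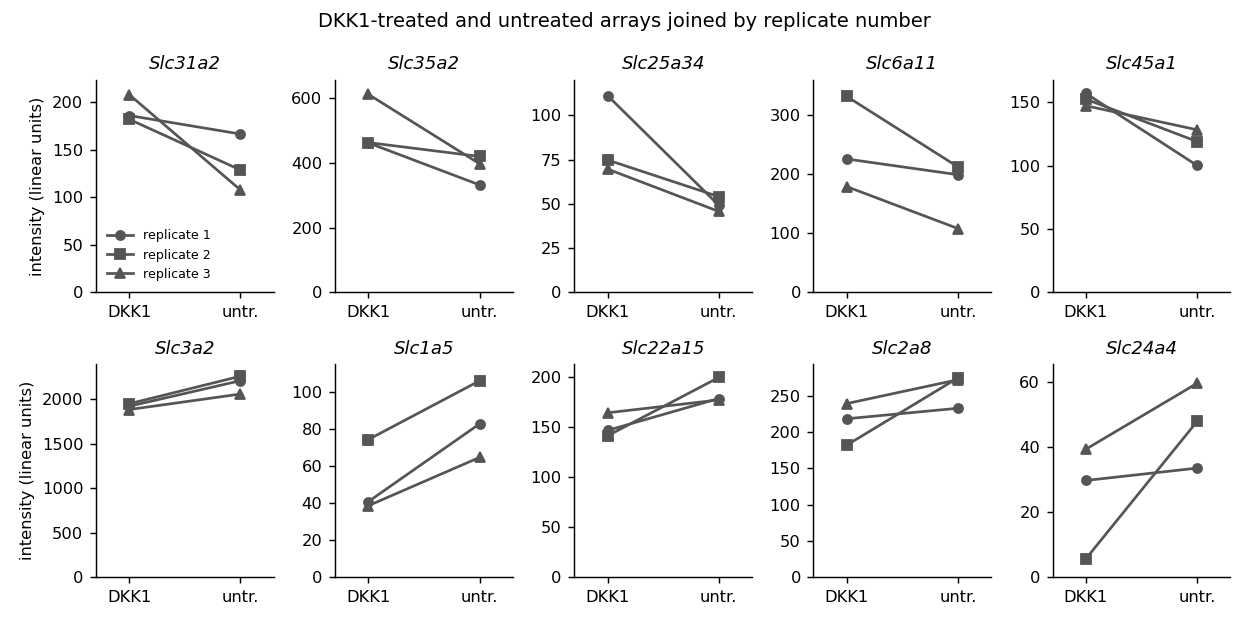
MAS5 intensity (linear units) of the 5 members with the smallest unadjusted p in each direction, on DKK1-treated (left in each panel) and untreated arrays (right), joined by replicate number. The upper row holds the 5 members with higher and the lower row the 5 with lower values after DKK1; within each of the 10 panels the 3 lines run the same way, which the choice of members favours, and no member was called.

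Partner subunits of carriers and of the sodium pump were mostly lower in ESC-RPCs. Their list also holds the kinases Wnk1, Stk39 and Oxsr1. Among all genes, 26.8% were lower and 26% higher in DKK1-treated, and 26.9% and 26.1% in untreated than in primary cells. Of 12 measured genes of 19 listed, 7 were lower and 2 higher in DKK1-treated as in untreated against primary cells (medians -0.47 and -0.50). The 2 higher genes were the kinases Stk39 (0.52 ± 0.14 and 0.67 ± 0.14) and Wnk1 (0.44 ± 0.11 and 0.47 ± 0.11), singled out after their values were seen. Fxyd1, a regulator of the sodium pump, averaged 129 in DKK1-treated, 125 in untreated and 329.7 in primary cells (-1.34 ± 0.16 and -1.40 ± 0.16). Emb, the partner that brings lactate carriers to the membrane, averaged 936, 1064 and 1889.95 (-1.02 ± 0.13 and -0.83 ± 0.13). Fxyd7, a brain member of the same family as Fxyd1, averaged 39.2, 17 and 169; all 3 untreated arrays lay below the percentile, so untreated cells were at least 3.37-fold lower, and DKK1-treated cells, with 2 arrays below it, differed by -2.03 ± 0.49. Of 5 measured Slco organic anion transporters, 2 were higher in each comparison, Slco3a1 (0.99 ± 0.15 and 0.96 ± 0.15) and Slco4c1, and 0 lower. Slco4c1 was dim, with all 3 primary arrays below the percentile, and gives a bound of 1.02-fold in DKK1-treated and none in untreated cells.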

How the data were processed

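Biotin-labelled cRNA was hybridised to 9 Affymetrix 3-prime expression arrays, 3 in each of 3 groups taken from the labels. The deposited values are intensity values on a linear scale, which the authors made with MAS5 per the submitters' processing notes; version and settings are not given in the sources used here. The trimmed mean of every deposited column (2% off each end) was 500.003. Log2 was taken with no further normalisation. Of 45101 probe sets, 64 were controls, 932 matched several genes and 9160 none. Those above their array's 40th percentile on at least 3 arrays were kept, and a gene's brightest probe set with 1 symbol gave 13320 genes. Gene names come from GEO's platform annotation, and every member's symbol matched RefSeq.

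Groups were compared with limma 3.58.1 in R 4.3.3, in 1 fit over all 9 arrays with an intensity trend, two-sided tests and Benjamini-Hochberg adjustment over all genes, called at 0.05. Labels state independent biological repeats and name no separate cultures or animals, so p-values measure the spread among these arrays. A fold against a group whose 3 arrays all fell under the percentile is a lower bound computed from that percentile. Arrays give no depth, and their number limits precision. The fit was tested on simulated data.

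Deviations from group means correlated at 0.123, 0.195 and 0.318 between DKK1-treated and untreated arrays of the same number, and at -0.234 to 0.0681 otherwise. With all 3 above 0.1, arrays of the same number were treated as pairs; the pairing comes from the values, not the labels, and does not extend to primary arrays (-0.0433 to -2.36e-06). 

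Members, substrate classes and gene lists were chosen with earlier results of these data known. In each comparison with primary cells the text names, of the called members without overlap, the 10 that rose most and the 10 that fell most, and the 2 called members of each class with the smallest adjusted p, besides a fixed set of carriers. Of that set, Slc17a7, Slc24a1 and Slc45a2 did not pass the filter, and others were not analysed here. For DKK1-treated against untreated cells it names the 5 members with the smallest unadjusted p in each direction, and from each other list the 2 genes with the smallest adjusted p. Alternatives were other scalings, filters, probe set rules, variance trends, blocks and sample sets. Figures were drawn with matplotlib.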

Additional observations from a re-analysis of the deposited data

How the results depend on the processing

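In the 6 other planned settings with the same 241 members, 118 to 130 were called in DKK1-treated and 118 to 131 in untreated against primary cells. Of all genes, 47.1% to 52.9% and 47.9% to 52.9% were called in these settings. The stricter filter gave 103 of 172 in each, or 59.9%, where 57% and 57.5% of all genes were called. No filter gave 132 and 134 of 344, or 38.4% and 39%, against 38.6% of all genes in each. With arrays centred on one median, untreated cells had 69 members higher and 50 lower than primary cells, and DKK1-treated cells 68 and 50. These calls made up 49.4% and 49% of members, where 49.3% and 49.1% of all genes were called. Leaving out 1 array at a time gave 111 to 129 members in DKK1-treated and 109 to 131 in untreated against primary cells. Of all genes, 44.5% to 54.9% and 44.6% to 54.7% were then called. Between DKK1-treated and untreated cells 0 members were called in each planned setting, the replicate block included; the replicate block of the 6 ESC-RPC arrays without 1 pair gave 0 to 1. With each gene's probe sets averaged, the sign turned for Slc35a2 in DKK1-treated against untreated cells (-0.035), for Slc1a2 (-0.26) and Slc35b2 (0.13) in DKK1-treated against primary cells, and for Slc1a2 (-0.43), Slc1a5 (0.10) and Slc35b2 (0.066) in untreated against primary cells. On another probe set of the same gene it turned for Slc35a2 in DKK1-treated against untreated cells (-0.15, -0.13, -0.40 and -0.024 on 4 probe sets). In DKK1-treated against primary cells it turned for Slc1a2 (-1.89), Slc1a5 (1.54), Slc35b2 (0.93), Slc38a2 (-0.058 and -0.16) and Slc7a11 (-0.71). In untreated against primary cells it turned for Slc1a2 (-2.31), Slc1a5 (1.81), Slc35a2 (0.042, 0.23 and 0.82), Slc35b2 (0.72), Slc38a2 (-0.022) and Slc7a11 (-0.71). Against primary cells, these lists cover only differences called in the main fit. A further 35 named differences were not called, and of their 615 alternative values 40 had the other sign and 25 were called. Among these, another probe set was called with the other sign in untreated cells for Slc38a1 (-1.01), Slc22a15 (-1.20) and Slc11a2 (1.43). Probe sets read different parts of a transcript, and the cause was not tested. Of the 117 named differences, alternatives lost the call 49 times in untreated and 11 times in DKK1-treated cells against primary cells. Of 109 members with several probe sets, 63 were called in untreated against primary cells, and in 39 of these every other probe set was called the same way. With the replicate block on all 9 arrays, 4 members lost and 3 gained a call in DKK1-treated and 4 lost and 4 gained one in untreated against primary cells. Of the named ones, Slc12a2 lost its call in untreated cells (0.33), and Slc1a4 was called higher in both (0.32 and 0.45). Dim members give only bounds.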

Other observations

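Some numbered families were not counted as families above. Of 5 measured Slc12 chloride cotransporters, 3 were higher and 0 lower in DKK1-treated and in untreated cells against primary cells. Of 8 genes with an Slc9 symbol, 3 were higher and 0 lower in each. These 8 hold sodium and proton exchangers and also Slc9a3r1 and Slc9a3r2, which are not carriers. The scaffold Slc9a3r1 is among the 3 called higher. Of 9 Slc6 members, 1 was higher and 4 lower in DKK1-treated, and 1 higher and 5 lower in untreated than in primary cells. Of 11 Slc16 monocarboxylate carriers, 2 were higher and 4 lower in DKK1-treated, and 2 higher and 2 lower in untreated than in primary cells. Of all genes, 26% were called higher and 26.8% lower in DKK1-treated, and 26.1% higher and 26.9% lower in untreated than in primary cells. These counts were picked out after the values were seen, and they share the same 3 primary arrays.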
